A study of Arabidopsis thaliana with 6 samples.

Results

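The genes described here are 9 Arabidopsis thaliana genes of cell wall loosening, 4 GH9 endoglucanases (GH9A3, GH9B7, GH9B8 and GH9C2) and 5 alpha-expansins (EXPA4, EXPA8, EXPA9, EXPA15 and EXPA16). They were picked by name from 13286 genes with a named probe set, with earlier results on both genotypes known, and each was read from its single probe set. They are also all the genes of these 2 families whose mean signal over the 6 arrays reached 24.5, the level below which probe sets were not tested. Of 25 GH9 genes in the reference annotation, 15 had a probe set of their own and 4 reached that level. Of 24 protein-coding alpha-expansin genes, 10 had one and 5 reached it. Because the choice was made with the comparison of genotypes in view, the differences between genotypes for these 9 genes are given as a description without a p-value.

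Plants of the wild type, accession Col-0, were compared with plants of sni1, a mutant in the Col-0 background, with 3 arrays each. The labels describe the sni1 mutation as induced by radiation and place it in AT4G18460, although the TAIR10.1 annotation gives the symbol SNI1 to the neighbouring gene AT4G18470. The samples were whole plants at growth stage 3.90, grown in soil at a room temperature of 22 °C once the seeds had spent 3 days at 4 °C, with no other treatment named. Whether the arrays of a genotype stem from separate plants or sowings is not stated, and errors and p-values therefore measure the spread between these samples, part of which can be technical.

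The wall of a growing plant cell is a network of cellulose microfibrils, xyloglucan and pectin that must yield for the cell to enlarge. Alpha-expansins are small secreted proteins that let wall polymers slide at acid pH without cutting them. GH9 endoglucanases hydrolyse internal beta-1,4 bonds of glucans. Class A enzymes, to which KORRIGAN1 of the cellulose synthesis machinery belongs, are anchored in membranes, class B enzymes are secreted, and class C enzymes are secreted and carry an additional carbohydrate-binding domain. SNI1 holds back systemic acquired resistance, a defence state that depends on salicylic acid.

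All values are MAS5 signal intensities, which summarise the short probes of a transcript on the ATH1 array. The 6 arrays had been scaled alike, with trimmed means between 99.959 and 99.968 and medians between 34.6 and 40.8. AT4G18460 had signals of 41.0, 40.04 and 37.2 in wild-type replicates 1 to 3 and of 44.3, 32.5 and 28.2 in sni1 replicates 1 to 3, and the genotypes overlapped (log2 difference -0.18 ± 0.21 SE, limma adjusted p = 0.906). AT4G18470, the gene annotated as SNI1, was not analysed here, so these signals do not check the genotype labels. Among defining markers of tissues, 5 leaf genes had a named probe set (RCA, PSBY, PSAN, LHCB4.1 and LHCB4.2) and their summed signal ran from 20689 to 30113 in wild type and from 17787 to 22198 in sni1. The root hair expansins EXPA7 and EXPA18, the 2 root markers with a named probe set, lay under the tested level, and no flower or pollen marker had one. The ratios of 3' to 5' control signal overlapped between genotypes, from 2.58 to 4.75 in wild type and 3.29 to 7.61 in sni1 for actin, and from 1.12 to 1.75 and 1.17 to 1.51 for GAPDH.

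Most of the 9 genes had lower signal in sni1. In 6 of them (GH9B7, GH9B8, GH9C2, EXPA8, EXPA15 and EXPA16) every sni1 array lay below every wild-type array, and in GH9A3, EXPA4 and EXPA9 the genotypes overlapped. The mean of sni1 was between 49.1% and 72.6% of the wild-type mean in the 6 and between 93.8% and 120% in the 3. Arrays without overlap, lower in sni1, were found in 6.63% of all 13648 probe sets tested. Since the 9 genes were chosen with this contrast known, nothing is read from the difference between these shares. The median log2 difference was -0.58 over the 9 genes and -0.01 over all probe sets tested. In bulk tissue, fewer cells of a type and less RNA per cell cannot be told apart.

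**Figure D1:**
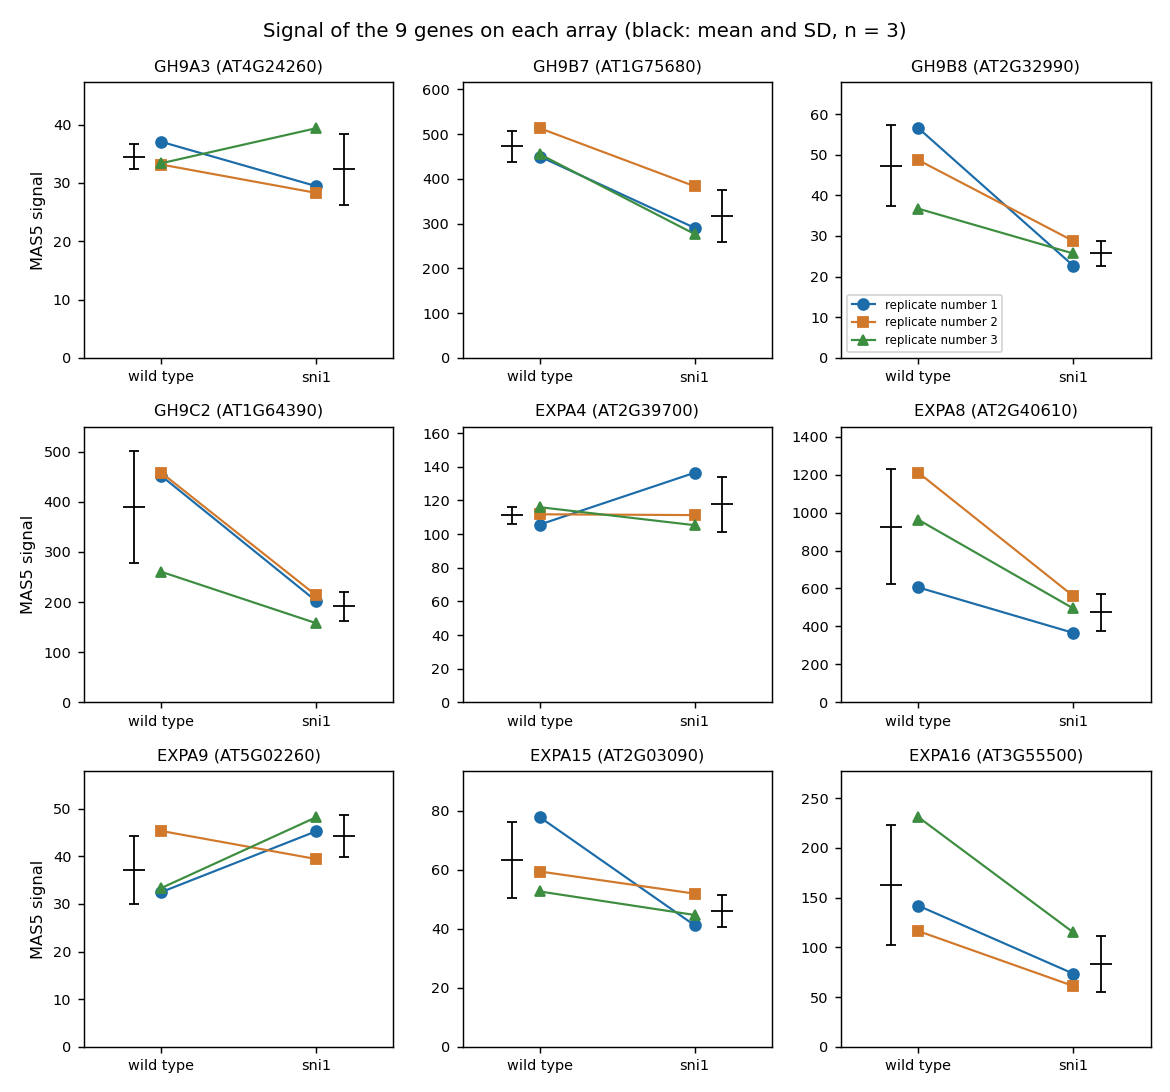
MAS5 signal (vertical axes, from 0, a separate scale for each gene) of the 9 genes on each of the 6 arrays. Coloured lines join the wild-type and sni1 arrays with the same replicate number, and black bars give the genotype mean and SD (n = 3). In 6 genes all sni1 points lie below all wild-type points, while GH9A3, EXPA4 and EXPA9 overlap.

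Among the endoglucanases, GH9C2 (AT1G64390), the class C enzyme, stood at 452, 458 and 260 in wild-type replicates 1 to 3 and at 202, 214 and 158 in sni1 replicates 1 to 3. The sni1 mean of 191 ± 29.4 was 49.1% of the wild-type mean of 390.1 ± 112 (SD, n = 3 each), a log2 difference of -0.98 ± 0.25 (SE). Replicate 3 was the lowest array of each genotype, and even there wild type lay above all 3 sni1 arrays. GH9B7 (AT1G75680), a class B enzyme, had signals of 449.8, 513 and 455 in wild type and of 290.5, 384 and 277 in sni1, in the same order. Its means were 473 ± 35.2 and 317 ± 58.1 (SD, n = 3 each; log2 difference -0.58 ± 0.18 SE). Replicate 2 was the highest array of both genotypes, and the lowest wild-type array exceeded the highest sni1 array.

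GH9B8 (AT2G32990), the other class B enzyme, was at 56.5, 48.6 and 36.7 in wild type and at 22.7, 28.8 and 25.7 in sni1. The means were 47.3 ± 9.97 and 25.7 ± 3.04 (SD, n = 3 each; log2 difference -0.80 ± 0.22 SE), the latter close to the tested level of 24.5. The 3 same-numbered pairs differed by -1.22, -0.70 and -0.47 on the log2 scale, so the size of the difference varied although its direction did not. GH9A3 (AT4G24260), also called KOR3, is the only membrane-anchored enzyme of the 4. It was at 37.1, 33.2 and 33.4 in wild type and at 29.5, 28.3 and 39.4 in sni1 (log2 difference -0.10 ± 0.21 SE). Here sni1 was lower in replicates 1 and 2 and higher in replicate 3, and the genotypes overlapped.

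Among the alpha-expansins, EXPA8 (AT2G40610) had signals of 606, 1209.8 and 962 in wild-type replicates 1 to 3 and of 366, 561 and 495 in sni1 replicates 1 to 3. Its means were 926 ± 304 and 474 ± 98.9 (SD, n = 3 each; log2 difference -0.93 ± 0.29 SE). Both genotypes were lowest in replicate 1 and highest in replicate 2, and the gap between the groups, from 561 to 606, was narrow. EXPA16 (AT3G55500) stood at 142, 116 and 231 in wild type and at 73.6, 61.2 and 115 in sni1. The means were 163 ± 60.1 and 83.3 ± 28.2 (SD, n = 3 each; log2 difference -0.93 ± 0.31 SE). Its groups were separated by 116 against 115 only, because replicate 3 was high in both genotypes, while the 3 pairs differed by nearly the same amount (-0.92, -0.89 and -0.99 on the log2 scale).

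EXPA15 (AT2G03090) was at 77.7, 59.4 and 52.6 in wild type and at 41.1, 51.9 and 44.6 in sni1. The means were 63.2 ± 13.0 and 45.9 ± 5.47 (SD, n = 3 each; log2 difference -0.43 ± 0.20 SE). The pair with replicate number 1 carried most of this difference, at -0.87 on the log2 scale against -0.19 and -0.22 in the other pairs. EXPA4 (AT2G39700) was at 106, 112 and 116 in wild type and at 136, 111 and 105 in sni1 (log2 difference 0.07 ± 0.16 SE), with the genotypes overlapping. EXPA9 (AT5G02260) was at 32.5, 45.3 and 33.4 in wild type and at 45.3, 39.4 and 48.2 in sni1 (log2 difference 0.25 ± 0.20 SE). EXPA9 was higher in sni1 in 2 pairs and lower in the pair with number 2, again with overlap.

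**Figure D2:**
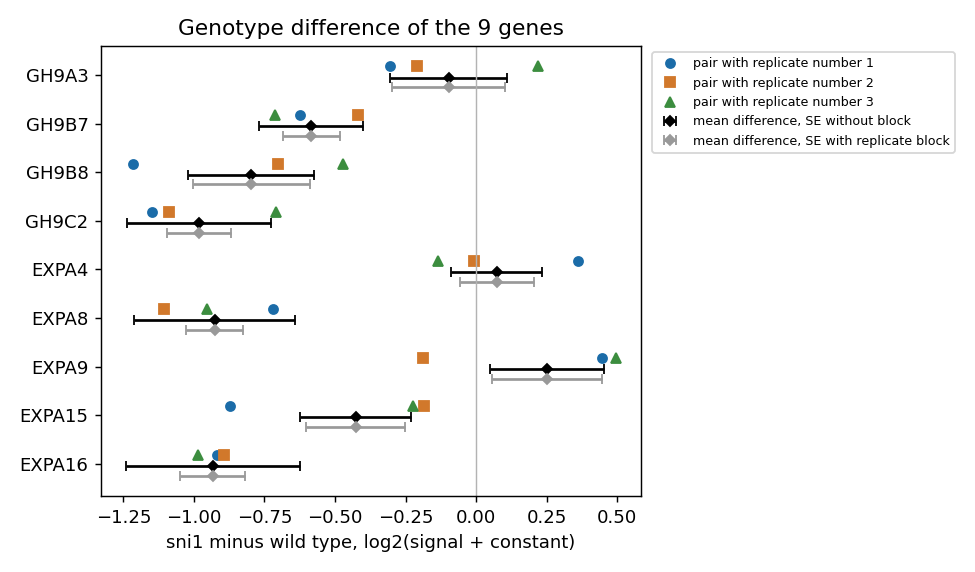
Difference of sni1 minus wild type on the log2(signal + 2.8668) scale (horizontal axis) for the 9 genes. Coloured symbols are the 3 same-numbered pairs, and diamonds are the mean differences with their SE without the replicate number in the model (black) and with it (grey). GH9B7, GH9B8, GH9C2, EXPA8, EXPA15 and EXPA16 have all 3 pairs below 0, and the SE of EXPA8 shrinks from 0.29 to 0.10 with the number in the model.

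All 3 same-numbered pairs were lower in sni1 in the same 6 genes, a pattern seen in 23.4% of all probe sets tested. The choice of the genes used this contrast, so this count describes the genes and supports nothing further.

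With a single array left out, the differences of EXPA8 ran from -1.20 without wild-type replicate 1 to -0.71 without wild-type replicate 2. The differences of EXPA16 ran from -1.18 without sni1 replicate 3 to -0.66 without wild-type replicate 3, and those of EXPA15 from -0.54 without wild-type replicate 3 to -0.27 without wild-type replicate 1. The other 3 genes without overlap stayed between -1.25 and -0.50 in these fits. The sign of EXPA4 changed without sni1 replicate 1 (-0.04), the array in which it stood at 136. GH9A3 was at -0.24 when sni1 replicate 3 was dropped and at -0.02 when sni1 replicate 2 was dropped. In the model that holds the replicate number as a block, once both arrays of number 1 were dropped, GH9A3 turned to 0.0060 and EXPA4 to -0.07. EXPA9 stayed between 0.17 and 0.39.

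A measure that did not enter the choice of the genes is the difference between replicate numbers, which both genotypes carry in their sample titles. Arrays with the same number tended to deviate alike across probe sets, and 31.2% of all probe sets tested differed between numbers past the threshold, an adjusted p of 0.05. Of the 9 genes, 3 did: EXPA16 (F = 23.0, limma adjusted p = 0.00202), EXPA8 (F = 21.6, adjusted p = 0.00237) and GH9C2 (F = 11.99, adjusted p = 0.0114). That share is near the share over all probe sets. What the numbers stand for (a sowing, a day or a hybridisation) is not stated in the labels.

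The 3 genes did not share a pattern over the numbers. Averaged over both genotypes, EXPA8 had a signal of 486 in number 1, 885 in number 2 and 729 in number 3. EXPA16 was at 108, 88.8 and 173, and so was highest where GH9C2, at 327, 336 and 209, was lowest. The GH9C2 call was lost without wild-type replicate 3 (F = 3.05, limma adjusted p = 0.196) and without a variance trend (adjusted p = 0.0601), while in the 6 fits that left out an array EXPA8 and EXPA16 passed throughout, at adjusted p of at most 0.0231 and 0.0210. GH9B7 did not pass (F = 4.12, adjusted p = 0.113), nor did GH9A3, GH9B8, EXPA4, EXPA9 and EXPA15 (adjusted p from 0.659 to 0.898).

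The shares of variation over the 6 arrays show how differently the genes behaved. They are sums of squares not divided by their degrees of freedom, of which genotype has fewer than the number or the remainder. Sizes are therefore compared between genes rather than between the shares of a gene, and the genotype shares belong to genes chosen with that contrast known. Genotype held 58.9% of the variation of EXPA16, replicate number 41.0% and the remainder 0.0993%. For EXPA8 these shares were 64.4%, 33.7% and 1.88%, and for GH9C2 73.2%, 23.9% and 2.85%. GH9B7 had 77.5% between genotypes and 19.0% between numbers, and GH9B8 81.0% and 6.68%. EXPA15 kept 31.3% outside both. EXPA4, EXPA9 and GH9A3 had the largest remainders of the 9 genes, at 73.02%, 56.6% and 54.8%.

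**Figure D3:**
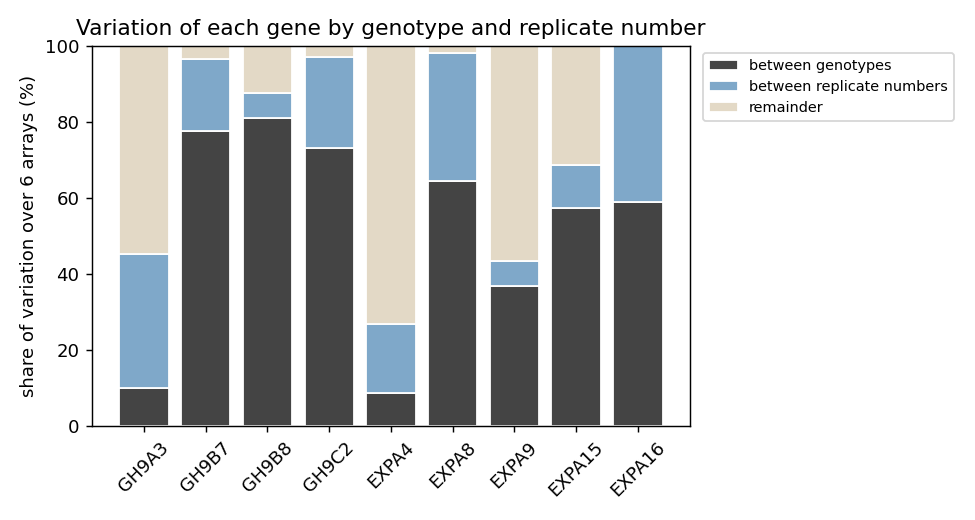
Share of each gene's variation over the 6 arrays, in percent of the sum of squares of log2 values (vertical axis), that lies between genotypes (dark), between replicate numbers (blue) and in neither (light). The light part is 0.0993% for EXPA16 and 73.02% for EXPA4.

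Likeness between profiles was measured as the root mean square difference of log2 values centred on each gene's own mean, over the 6 arrays, among 7270 other named genes tested. It was computed for the 4 genes that ranged over more than 1 on the log2 scale. Nearest to EXPA16 were AT5G22580 (0.0819), TUB1, a beta-tubulin (0.159), and ZW9 (0.176). Nearest to EXPA8 were UGT76C2, a glucosyltransferase of cytokinins (0.110), AT5G24580 (0.151) and AT3G62930 (0.180). GIS, a zinc finger regulator of trichome formation (0.0859), AT2G02780 (0.121) and AT3G44940 (0.123) were nearest to GH9B8, and ATLP-1 (0.156), AT5G05960 (0.157) and AT5G42860 (0.162) to GH9C2.

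No pair of the 9 genes was as close as any of these neighbours. Those neighbours are the 3 nearest of 7270 genes, while each of the 9 has only the rest of the 9 to match. The comparison was therefore nearly settled in advance, and nothing is read from it. The closest pair of the 9 was EXPA15 and GH9B8 (0.197), followed by GH9B8 and GH9C2 (0.214). Of the other genes, 287 lay closer to EXPA15 than GH9B8 did, and 40 lay closer to GH9B8 than GH9C2 did. Over all pairs of the 9 this count, taken from 1 gene of each pair, ran from 40 to 6989 (EXPA9 and GH9C2). EXPA8 and EXPA16, which had almost the same genotype difference, were 0.54 apart, and 1375 other genes lay closer to EXPA16 than EXPA8 did. The 6 points of a profile share their arrays and their genotype, so these distances are descriptions.

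The remaining family genes with a probe set of their own had mean signals from 2.07 to 21.9, under the tested level of 24.5. They were 11 GH9 genes and 5 alpha-expansins, of which 9 had a negative log2 difference (sni1 minus wild type) in the fit without the level, and 0 passed its threshold (limma adjusted p from 0.802 to 0.994). In that fit 52 of 22746 probe sets passed (0.229%). The genes just inside the level were GH9A3 (mean over all arrays 33.5) and GH9B8 (36.5), and those just outside were EXPA18 (21.9), GH9B18 (21.8) and GH9B5 (21.7). The root hair expansin EXPA7 was at 13.9, 15.3 and 16.6 in wild type and at 5.95, 7.0 and 13.8 in sni1 (log2 difference -0.68, limma adjusted p = 0.802 without the level). A further 4 probe sets were shared by several genes of the families and ran from 0.648 to 19.9, and no gene was named from them.

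Other genes of wall remodelling and growth were drawn from 9 lists, of which 2 (wall glycoproteins and proton pumps) had no gene with a named probe set. Of 378 list entries 41 had a named probe set, and 24 of these reached the tested level. Without the replicate number in the model 0 of the 24 passed in limma, against 0.550% of all probe sets tested, and 4 had an unadjusted p under 0.05, against 8.49%. With the replicate number as a block in the model 6 passed, 5 lower and 1 higher in sni1, where 3.88% and 6.15% of all probe sets tested did. The median log2 difference of the 24 was -0.03. These lists, too, were chosen with earlier results of these data known. The counts here and the p-values of single list genes below are therefore descriptions and not independent tests.

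The beta-expansins, which act like alpha-expansins and are best known from grasses, included the most negative difference of the 24. EXPB1 (AT2G20750) was at 69.1, 131 and 44.9 in wild type and at 21.6, 41.2 and 16.5 in sni1, without overlap. Its means were 81.7 ± 44.3 and 26.5 ± 13.0 (SD, n = 3 each), a log2 difference of -1.49 ± 0.43 (SE; limma adjusted p = 0.308). EXPB1 fell with the block (SE 0.17, adjusted p = 0.000373) and passed with the block without the arrays of each number (adjusted p up to 0.00972). EXPB3 (AT4G28250), at 68.0 ± 30.1 and 42.0 ± 13.2 with overlap (SD, n = 3 each; log2 difference -0.60), had limma adjusted p = 0.0447 with the block and 0.780 in its absence. That call was lost with the block without number 1 (0.0955) or number 2 (0.291), and with 1 array left out the difference of EXPB3 ran from -1.0 without wild-type replicate 3 to -0.32 without wild-type replicate 2. The other 3 of the 5 tested genes in the list of other expansins did not pass. EXLA1, an expansin-like gene with a positive difference (0.60; limma adjusted p = 0.112 with the block and 0.798 in its absence), passed as higher in sni1 with the block without number 1 (0.0198) or number 3 (0.0423). Leaving out 1 array moved EXLA1 between 0.21 without wild-type replicate 2 and 1.011 without wild-type replicate 3.

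Xyloglucan endotransglucosylases cut and rejoin xyloglucan. XTH32 (AT2G36870) was the 1 of 4 tested that passed, with means of 264 ± 175 and 173 ± 93.2 (SD, n = 3 each; log2 difference -0.55; limma adjusted p = 0.0209 with the block and 0.872 without it). Its call was lost with the block without number 1 (0.0588) or number 2 (0.138), and with 1 array left out the difference ran from -0.95 without sni1 replicate 2 to -0.05 without wild-type replicate 2. XTH16 stood at 0.30 and did not pass (adjusted p = 0.291 and 0.818).

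Of the pectin genes, ATPMEPCRB (AT4G02330), a pectin methylesterase, which removes methyl groups from pectin in the wall, was at 24.2, 62.4 and 19.6 in wild type. In sni1 it was at 119.5, 220.2 and 122, and the genotypes did not overlap. The log2 difference was 2.14 ± 0.42 (SE), with limma adjusted p = 0.0951 without the block, and the gene rose with it (adjusted p = 2.58e-05). Without wild-type replicate 2 it passed without the block. PME61, another pectin methylesterase, stood at 0.23 (adjusted p = 0.463 with and 0.880 without the block).

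Among 7 tested genes of hemicellulose synthesis, CSLC5 (AT4G31590), of the family that makes the xyloglucan backbone, was the 1 that passed with the block. Its means were 131 ± 28.0 in wild type and 83.1 ± 14.4 in the mutant, without overlap (SD, n = 3 each; log2 difference -0.63; limma adjusted p = 0.00906 with the block and 0.426 in its absence). CSLA01, of the mannan synthase family, stood at 0.48 and did not pass (0.133 and 0.828). Among the genes that did not pass, CSLC04 (-0.35) did so with the block without number 2 (limma adjusted p = 0.0279) and ATCSLC08 (-0.43) with the block and quantile normalization (0.0466). Of the 3 auxin and growth genes tested, IAA29 (AT4G32280), an auxin response repressor, was at 184.5 ± 81.7 and 115 ± 67.7 with overlap (log2 difference -0.72; limma adjusted p = 0.00929 with the block and 0.803 in its absence). IAA29 did not pass with the block without number 2 (0.0655), and with 1 array left out its difference lay at -1.16 when sni1 replicate 3 was dropped and at -0.31 when sni1 replicate 1 was. IAA18 stood at -0.07 (0.739 with and 0.986 without the block), COB, a membrane-anchored protein of oriented cell expansion, at -0.17 (0.313 and 0.877) and the beta-galactosidase BGAL16 at 0.00 (0.998 and 0.999).

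**Figure D4:**
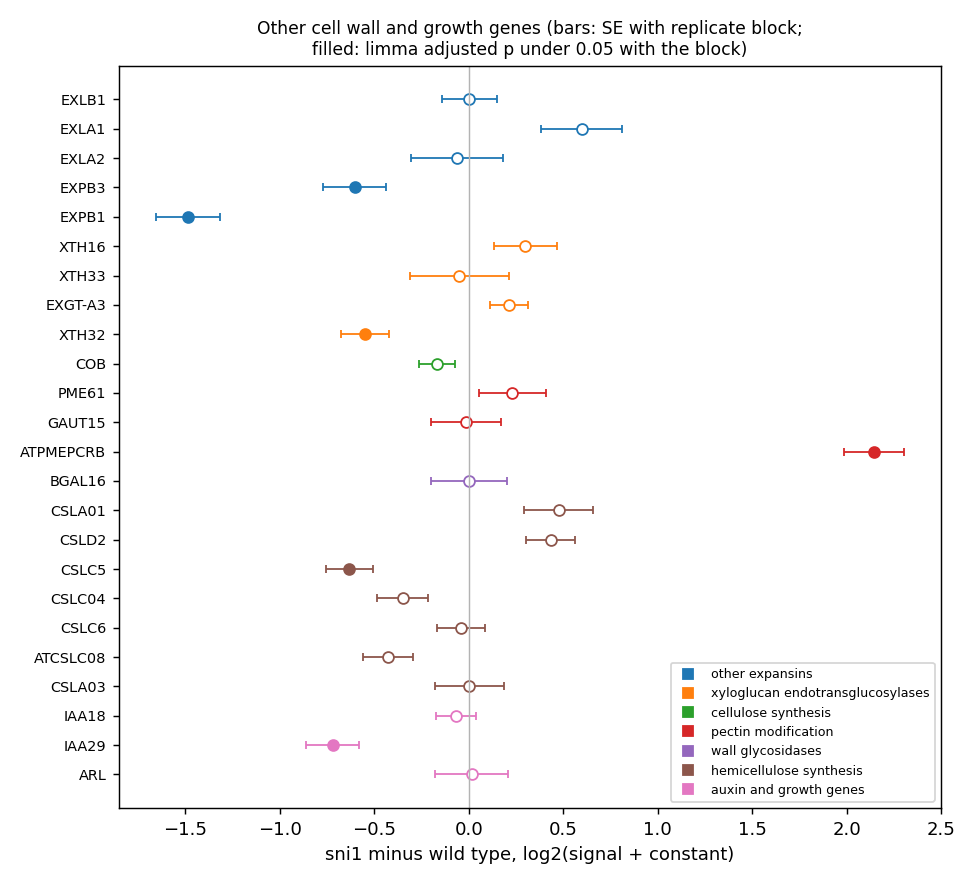
Difference of sni1 minus wild type on the log2(signal + 2.8668) scale (horizontal axis) for the 24 other wall and growth genes tested, coloured by list. Bars are the SE with the replicate block and filled points passed with the block. EXPB1 lies lowest at -1.49 and ATPMEPCRB highest at 2.14.

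Differences between replicate numbers were also common in these lists, with 12 of 24 genes past the threshold against 31.2% of all probe sets. XTH32 averaged 124, 370.4 and 161 in numbers 1 to 3 (limma adjusted p = 0.000215) and EXPB1 45.4, 86.1 and 30.7 (adjusted p = 0.00230), both highest in number 2 as EXPA8 was. IAA18, at 169, 155 and 363 (adjusted p = 0.000220), was highest in number 3 as EXPA16 was.

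Of the 5 leaf markers, 2 fell with the block, where 3.88% of all probe sets tested did. Without the block 0 of them passed, against 0.550% of all probe sets. Between replicate numbers 4 of the 5 differed past the threshold, against 31.2% of all probe sets. The differences of all 5 were negative, with a median of -0.30 on the log2 scale, a size that depended on the normalization. That of RCA, at -0.11, turned to 0.06 with quantile normalization, 0.11 with cyclic loess and, at most, 0.04 with 1 array left out. With quantile normalization PSAN was at -0.09, LHCB4.1 at -0.06, PSBY at -0.21 and LHCB4.2 at -0.27. Cyclic loess gave -0.10, -0.06, -0.17 and -0.27 in the same order. PSBY, a photosystem II protein (-0.37), and LHCB4.2, an antenna protein (-0.47), fell with the block (limma adjusted p = 0.0202 and 0.0125), whereas in its absence the values were 0.695 and 0.549. With the block and quantile normalization PSBY did not pass (-0.21, limma adjusted p = 0.101), nor with the block without number 1 (0.0910) or number 2 (0.120). LHCB4.2 passed with the block and quantile normalization (-0.27, adjusted p = 0.0340). With the block and cyclic loess neither gene passed (adjusted p = 0.204 for PSBY and 0.0525 for LHCB4.2). The guard cell regulator FMA, at 51.5 ± 6.18 in wild type and 64.0 ± 7.29 in sni1, was the 1 guard cell marker of 6 with a named probe set and did not pass (0.252 with and 0.739 without the block). The part of these markers in the lower signals of the wall genes was not tested.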

How the data were processed

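Whole plants of 2 genotypes were measured on 6 Affymetrix ATH1 arrays, 3 per genotype, grouped by sample title. The deposited table holds linear signal intensities, made with MAS5 per the submitters' processing notes (its version: not given in the sources used here). Their number limits the precision. Probe sets were named from the platform annotation through TAIR10.1 gene identifiers (14016 listed, 13436 with 1 matched locus, 503 with several genes, 8730 not listed), and no coordinates or sequences were used.

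Values were transformed as log2(value + 2.8668), where the constant is the table's 10th percentile. It understates the fold changes of low signals. Control probe sets (64) and probe sets with a mean under 24.5, the 40th percentile, were left out, and 13648 of 22746 were tested with limma 3.58.1 (lmFit, eBayes with an intensity trend, two-sided) in R 4.3.3, adjusted by Benjamini-Hochberg, at a threshold of 0.05. Differences are sni1 minus wild type. Replicate numbers were tested with the moderated F-test of a model with genotype and number. Tables and figures used Python 3.11.15, pandas 2.3.3 and matplotlib 3.10.9. The procedure was tested on simulated data.

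Same-numbered arrays of the 2 genotypes deviated together from their genotype means (correlations from 0.58 to 0.71 across probe sets, which are not independent). Other pairs ran from -0.53 to -0.05. Deviations from a genotype mean cancel out within the genotype, so positive values for same-numbered arrays push the others below 0. That second range is therefore no separate evidence of pairing. The pairing comes from the data, not from the labels, which do not say what the number stands for. The main genotype fit therefore left the number out, and same-numbered pairs were described beside it. The fit with the number as a block is the alternative given beside results it changes.

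The 9 genes and the lists were chosen with earlier results of these data known. Named list genes were those past the threshold without or with the block, up to 4 per list, or else the largest differences up to 2, and the 3 nearest profiles of each of the 9 genes that ranged over more than 1 on the log2 scale. Alternatives covered the constant, the filter, normalization, the variance trend, array weights, the block and each array left out.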

Additional observations from a re-analysis of the deposited data

How the results depend on the processing

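The median log2 difference of the 9 genes was -0.58 and kept its direction in all alternatives. It was -0.93 with the filter at the 60th percentile, which leaves 5 of the 9, among them EXPA4. With the filter at the 60th percentile 46 probe sets passed the genotype comparison, with array weights 137, and with 1 array left out from 5 to 71, against 75. With the replicate number as a block 1369 passed, with the block and quantile normalization 1446, with the block and cyclic loess 1406, and with the block 1112 without replicate number 1, 835 without number 2 and 1028 without number 3. Of the 24 other wall and growth genes 6 passed with the block, 7 with the block and quantile normalization, 6 with the block and cyclic loess, from 4 to 7 with the block and both arrays of a number left out, and from 0 to 1 (ATPMEPCRB, without wild-type replicate 2) with a single array left out. Some of these fits had fewer arrays or probe sets, and the cause of the changes was not tested. The number of probe sets differing between replicate numbers was 4252, ran from 2908 to 4052 with 1 array left out, and under the other alternatives from 2838 (no variance trend) to 4550 (median centring). Calls that the block changed among the named list genes and leaf markers are given beside each gene above. For the 9 genes no genotype call is given with or without the block, since they were chosen with that contrast known. No other probe set of the 9 genes was there to try. The fits with both arrays of a number left out and those joining the block with a normalization were added after seeing the data. Small signals near the tested level limit GH9A3, GH9B8 and EXPA9 most. A promoter motif count that had been planned was not run, since no promoter sequences were used here.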
